A study of Mus musculus with 4 samples.

Results

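Penk, Calca, Calcrl, Ramp1, Ramp3, Nmur1, Vipr1 and Vipr2 are genes of neuropeptide signalling, 2 of them ligand precursors and 6 of them receptors or receptor partners. These 8 genes, of 31053 features in the count matrices, were chosen by name for their unique molecular identifier (UMI) counts in these same 4 libraries, with earlier results on the libraries known. Their levels, and their differences between the 2 temperatures, are therefore described here, and the adjusted p given for a member is its place in a fit over all genes rather than independent evidence.

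The study profiled cells of inguinal white adipose tissue (IWAT), a subcutaneous fat depot, from male ChATBAC-eGFP mice, in which green fluorescent protein from a bacterial artificial chromosome transgene marks cells that use the gene for choline acetyltransferase. All mice entered 30 °C housing (thermoneutrality) at 5 weeks of age and stayed for 3 weeks. The 30 °C group was kept there for 4 h more, and the 4 °C group was given 4 h of cold after a day at room temperature. Live eGFP+ single cells of the stromal vascular fraction were sorted and sequenced by droplet 3' RNA sequencing, with 2 libraries per temperature and 4 pooled mice in each library. The sort kept eGFP+ cells only, so cells of the tissue without eGFP, its neurons and its mature adipocytes were outside what was measured.

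Penk encodes proenkephalin, the precursor of the enkephalins, which act on opioid receptors. Calca encodes both calcitonin and, through another splice form, calcitonin gene-related peptide (CGRP). CGRP acts on the receptor encoded by Calcrl when that receptor is paired with the single-pass protein encoded by Ramp1, whereas pairing with the products of Ramp2 or Ramp3 makes receptors for adrenomedullin. Nmur1 encodes a receptor of neuromedin U, and Vipr1 and Vipr2 encode the receptors VPAC1 and VPAC2 of vasoactive intestinal peptide (VIP). Group 2 innate lymphoid cells (ILC2), lymphocytes without an antigen receptor that make interleukins 5 and 13, are known to respond to neuromedin U, VIP and CGRP.

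In these cells the receptor partner genes Ramp1 and Ramp3 and the VIP receptor gene Vipr2 were lower after cold in ILC2-like cells, by fitted folds of 2.84, 4.56 and 6.33. In macrophages Ramp3 was nearly absent after cold, with 40 UMIs at 30 °C and 1 at 4 °C, while Calcrl was higher by a fitted fold of 2.36. Penk was held mostly by regulatory T cells, where the temperatures overlapped. Nmur1 was too rare to test, at 28 UMIs in all.

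The libraries held 76058112 to 84468931 UMIs as deposited, and 5191 to 5388 cells per library passed the filters, with medians of 7520 to 8068 UMIs per cell. Cells were placed by markers into 17 gates, none of which used a member gene, and a gate's name means only that its cells carried those markers. Of 21253 cells kept, 821 carried markers of more than 1 lineage and 403 of none, and both sets were left out of the gates. Any 2 libraries shared between 5 and 14 cell barcodes, at most 0.263% of the smaller library. Scrublet marked 1.87% to 2.66% of a library's cells as doublets, and these were removed only as an alternative. The macrophage gate carried its markers in nearly every cell, with C1qa in 99.0% and Csf1r in 97.5% of cells. The stromal gate had Col3a1 in 100% and Pdgfra in 72.7% of its cells, and the lymphatic endothelial gate had Prox1 in 96.7% and Flt4 in 90.0%. Of the lymphatic gate's other markers, Reln was in only 12.2% and Ccl21a in only 4.44% of its cells. Ccl21a was 2.20 and 76.2 CPM (UMIs per 1000000) in the 30 °C libraries against 2723 and 587 CPM in the 4 °C libraries. The part of this in the results of the lymphatic gate was not tested. The follicular helper T cell gate took T cells with a Cxcr5 UMI outside the gamma-delta, Foxp3+ and Eomes Nkg7 gates, and did not require Cd4. Pdcd1 was in 62.3%, Bcl6 in 40.2% and Il21 in 28.5% of its cells, and Cxcr5 was in 25.4% of cells outside it. Its name therefore means Cxcr5+ T cells throughout. The ILC2-like gate also stood on less firm ground. Its cells carried Il7r (99.3%), Rora (91.2%), Gata3 (86.3%), Il13 (57.6%) and Il17rb (49.3%), but Il1rl1 in only 13.7% and Klrg1 in 4.97%. The gate required cells without Cd3e and Cd3d, yet the T cell genes Trbc2 and Cd3g were found in 90.2% and 73.5% of its cells, Trac in 28.9% and Trdc in 12.5%. It is therefore called ILC2-like throughout, and its results are also given in narrower sets of its cells.

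On the mouse genome mm10 (GRCm38, GENCODE M21 models), Penk lies at chr4:4133531-4138819 on the minus strand and Calca at chr7:114631478-114636357 on the minus strand. Calcrl lies at chr2:84330626-84425411 on the minus strand, Ramp1 at chr1:91179822-91225196 on the plus strand and Ramp3 at chr11:6658521-6677475 on the plus strand. Nmur1 lies at chr1:86386303-86426228 on the minus strand, Vipr1 at chr9:121642716-121672954 on the plus strand and Vipr2 at chr12:116077726-116146261 on the plus strand. All 8 are protein-coding genes and none overlapped another gene on its own strand. Calca had 6 coding transcripts, and reads counted per gene cannot tell calcitonin transcripts from CGRP transcripts.

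Promoters of the 4 members that were past the threshold in ILC2-like cells are printed as a description. Receptors for CGRP and VIP signal through cyclic AMP, and whether cyclic AMP acts on these genes was not tested. Each promoter window is 250 bases before to 50 bases after the start. The windows come from a RefSeq table on GRCm38.p6 to which 7 of the 8 members were matched, all but Penk. Capitals mark the core letters of the cyclic AMP response element, TGACG, or their reverse complement CGTCA. All sequences read 5′ to 3′ on the gene's own strand.
Calca, chr7:114636308-114636607, minus strand: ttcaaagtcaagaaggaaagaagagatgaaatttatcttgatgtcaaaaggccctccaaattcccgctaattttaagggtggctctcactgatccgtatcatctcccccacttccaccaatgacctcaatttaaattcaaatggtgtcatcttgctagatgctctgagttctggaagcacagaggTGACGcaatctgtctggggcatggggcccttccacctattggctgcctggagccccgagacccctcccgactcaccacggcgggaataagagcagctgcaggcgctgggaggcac
Ramp1, chr1:91179572-91179871, plus strand: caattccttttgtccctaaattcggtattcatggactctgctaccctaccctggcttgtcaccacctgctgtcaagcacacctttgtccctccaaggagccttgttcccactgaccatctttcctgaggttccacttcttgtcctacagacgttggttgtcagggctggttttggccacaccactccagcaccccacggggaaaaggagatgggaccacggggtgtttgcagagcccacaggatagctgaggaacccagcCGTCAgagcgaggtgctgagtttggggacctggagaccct
Ramp3, chr11:6658283-6658582, plus strand: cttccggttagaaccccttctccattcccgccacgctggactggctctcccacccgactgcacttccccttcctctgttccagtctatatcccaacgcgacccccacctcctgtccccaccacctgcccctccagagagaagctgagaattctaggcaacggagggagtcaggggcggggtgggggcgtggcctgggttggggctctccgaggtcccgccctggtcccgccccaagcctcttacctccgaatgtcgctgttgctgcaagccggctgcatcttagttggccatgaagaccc
Vipr2, chr12:116077476-116077775, plus strand: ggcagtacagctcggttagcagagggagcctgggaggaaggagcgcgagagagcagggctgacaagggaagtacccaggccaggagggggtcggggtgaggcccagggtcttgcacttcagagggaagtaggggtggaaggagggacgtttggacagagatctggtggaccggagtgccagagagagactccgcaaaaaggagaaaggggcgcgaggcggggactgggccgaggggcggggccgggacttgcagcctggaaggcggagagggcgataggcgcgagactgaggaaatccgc
The core was found once in the Calca window and once in the Ramp1 window, and in neither the Ramp3 nor the Vipr2 window. Among the other members, Vipr1 held it once, 13 bases before the start, and Calcrl and both Nmur1 windows did not hold it. Of 32851 promoter windows of this length in the table, 6837 (20.8%) held the core on either strand. A match is only these letters, and no binding was measured.

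**Figure D1:**
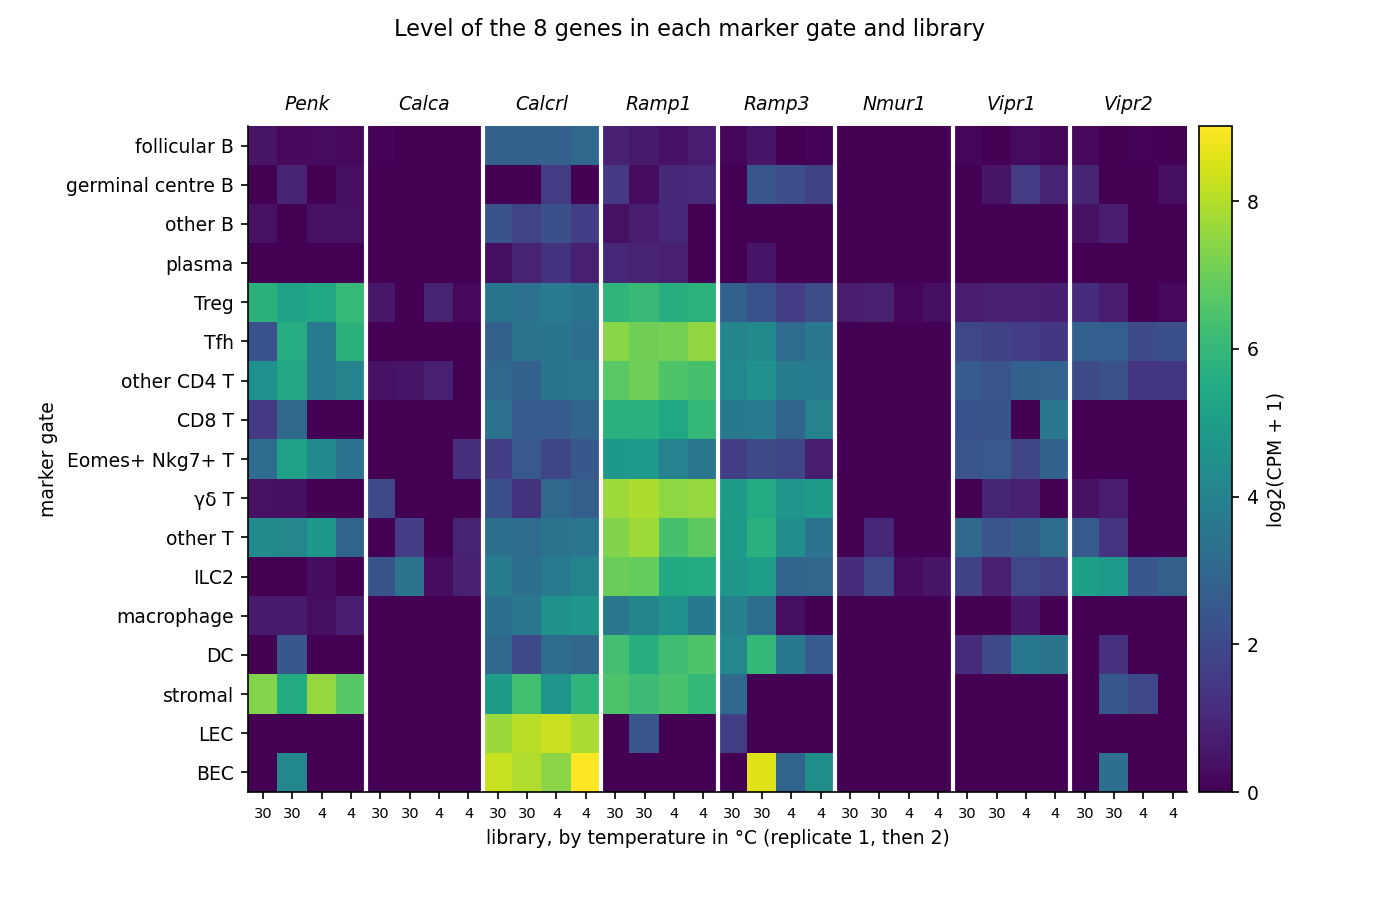
Heat map of the level of each member in each marker gate, with colour for log2(CPM + 1) and 1 column per library, labelled by temperature. Penk was highest in stromal cells and regulatory T cells, Calcrl in both endothelial gates, Ramp1 in gamma-delta T cells, and Vipr2 in ILC2-like cells at 30 °C.

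The heat map of levels by gate is drawn from each gene's level as CPM, its UMIs per 1000000 UMIs of that gate in that library. Penk was held by T cells and stromal cells. Of its 2398 UMIs, 60.6% were in regulatory T cells (Foxp3+), 11.2% in other CD4 T cells, 7.55% in follicular helper T cells and 5.17% in the 99 stromal cells. By level, stromal cells were highest, with 125 ± 65.7 CPM (SD, n = 4 libraries), followed by regulatory T cells with 49.1 ± 13.0 CPM and follicular helper T cells with 29.6 ± 25.1 CPM. No neighbours in that order were separate in every library. One stromal cell of the first 4 °C library held 51 of that library's 68 stromal Penk UMIs.

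Within regulatory T cells, Penk was concentrated in few cells. It was detected in 201 of 3404 cells (5.90%), with a median of 4 UMIs and a highest value of 88 UMIs in a positive cell. The 20 cells with most Penk held 40.9% of the gate's Penk UMIs, and 45 cells held 10 or more. For comparison, 16 of 7295 follicular B cells (0.219%) held a Penk UMI, each of them 1, at higher median depths of 7544 UMIs at 30 °C and 7861 at 4 °C against 5905 and 6502 in regulatory T cells. Follicular B cells, which should lack the gene, serve as the measure of free RNA here, and the regulatory T cell share lay above theirs in spite of the lower depth.

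Some Penk+ CD4 T cells outside the Foxp3+ gate carried other regulatory T cell genes. Among the 52 Penk+ other CD4 T cells, 36 (69.2%) had at least 2 of Ikzf2, Il2ra and Ctla4, compared with 44.0% of the 1488 Penk- cells of that gate. Median depths were 6865 and 6421 UMIs. In follicular helper T cells the shares with at least 2 of these genes were closer, at 56.5% of 23 Penk+ and 49.0% of 706 Penk- cells. By single gene, Ctla4 was in 56.5% and 54.7%, Ikzf2 in 91.3% and 78.3%, and Il2ra in 17.4% and 4.96% of these cells. None of these differences was tested. A Foxp3 transcript can be missed in a cell at these depths, and the part this had in the gate was not tested.

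Calca was rare, with 92 UMIs in 40 cells, of which 44.6% were in ILC2-like cells. In that gate the level was 4.09 and 10.1 CPM at 30 °C, and 0.225 and 0.757 CPM in the cold libraries. The next gates, gamma-delta T cells (0.748 CPM) and other T cells (0.737 CPM), overlapped it and rested on 9 and 5 UMIs. In follicular B cells the share of cells with a Calca UMI was 0.0261% at 30 °C.

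Calcrl was highest in endothelial cells. Blood endothelial cells, 35 cells in all and too few to test, had 312 ± 147 CPM, and lymphatic endothelial cells had 255 ± 49.5 CPM. Every library of the lymphatic gate lay above every library of the next gate, stromal cells, at 47.7 ± 24.5 CPM. Macrophages followed with 17.4 ± 8.59 CPM and ILC2-like cells with 12.4 ± 2.84 CPM. Of the neighbours after the lymphatic gate, only other B cells (lowest library 2.22 CPM) lay above the next gate, plasma cells (highest library 1.49 CPM), in every library. Because B and T cells were so many, 20.9% of all 1995 Calcrl UMIs were in follicular B cells and 15.6% in regulatory T cells, compared with 11.8% in the 90 lymphatic endothelial cells.

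Ramp1 was highest in gates of T cells. Gamma-delta T cells had 205 ± 26.1 CPM, follicular helper T cells 156 ± 24.7, other T cells 138 ± 55.5, other CD4 T cells 102 ± 20.1 and ILC2-like cells 83.0 ± 44.2. Stromal cells (77.3 ± 11.8 CPM), dendritic cells (73.9 ± 17.4 CPM) and regulatory T cells (58.0 ± 8.17 CPM) came next, and each of these gates overlapped the one after it. Every library of CD8 T cells (52.6 ± 9.71 CPM) lay above every library of Eomes Nkg7 T cells (20.3 ± 8.89 CPM), which overlapped macrophages (15.4 ± 5.25 CPM), and the B cell, plasma cell and endothelial gates had means at or below 1.06 CPM. Follicular B cells held Ramp1 in 0.586% of cells at 30 °C and 0.410% at 4 °C.

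Leaving out blood endothelial cells, Ramp3 was also highest in gamma-delta T cells, but its order differed from that of Ramp1. Gamma-delta T cells had 32.3 ± 8.16 CPM, other T cells 28.2 ± 17.9, dendritic cells 24.2 ± 26.3 and ILC2-like cells 18.1 ± 13.3. Follicular helper T cells had 13.4 ± 4.94 CPM, and stromal cells had 1.85 ± 3.70 CPM on 1 UMI. The blood endothelial mean of 102 CPM rested on 1 library, in which 3 cells held 43 UMIs, and the other 3 libraries held 0, 1 and 1. All neighbours in the order overlapped.

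Nmur1 was found only as single UMIs, in 28 cells. ILC2-like cells held 13 of them, regulatory T cells 13 and other T cells 2, and none were in the other gates. Its level was 1.18 ± 1.22 CPM in ILC2-like cells and 0.448 ± 0.292 CPM in regulatory T cells. Over all cells the libraries held 8 and 15 UMIs at 30 °C and 2 and 3 at 4 °C. The ratio of 30 °C to 4 °C was 4.70 with a 95% counting interval of 1.75 to 15.8, and too few reads were present for the fit over all genes. The interval covers counting error only, as do all such intervals here.

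Vipr1 and Vipr2 were highest in different gates. Vipr1 had 273 UMIs in 242 cells, 25.6% in other CD4 T cells, 13.2% in other T cells and 11.4% in dendritic cells, and its mean levels were between 4.41 and 6.48 CPM in the 5 highest gates, which overlapped. Vipr2 had 336 UMIs in 273 cells, of which 57.1% were in ILC2-like cells. Its level was 17.7 ± 14.7 CPM in ILC2-like cells, 4.47 ± 1.31 CPM in follicular helper T cells and 2.59 ± 1.04 CPM in other CD4 T cells. In follicular B cells the share of cells with a Vipr2 UMI was 0.0784% at 30 °C and 0.0330% at 4 °C.

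Where Calcrl was highest, its partner was Ramp2. Of the 70 lymphatic endothelial cells with a Calcrl UMI, 68 (97.1%) had Ramp2, 1 had Ramp1 and 1 had Ramp3, and Ramp2 was also in 95% of the 20 lymphatic endothelial cells without Calcrl. All 28 blood endothelial cells with Calcrl had Ramp2. In stromal cells 79.3% of the 29 Calcrl+ cells had Ramp2 and 41.4% had Ramp1, at a median depth of 13544 UMIs against 3658 in the Calcrl- cells.

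**Figure D2:**
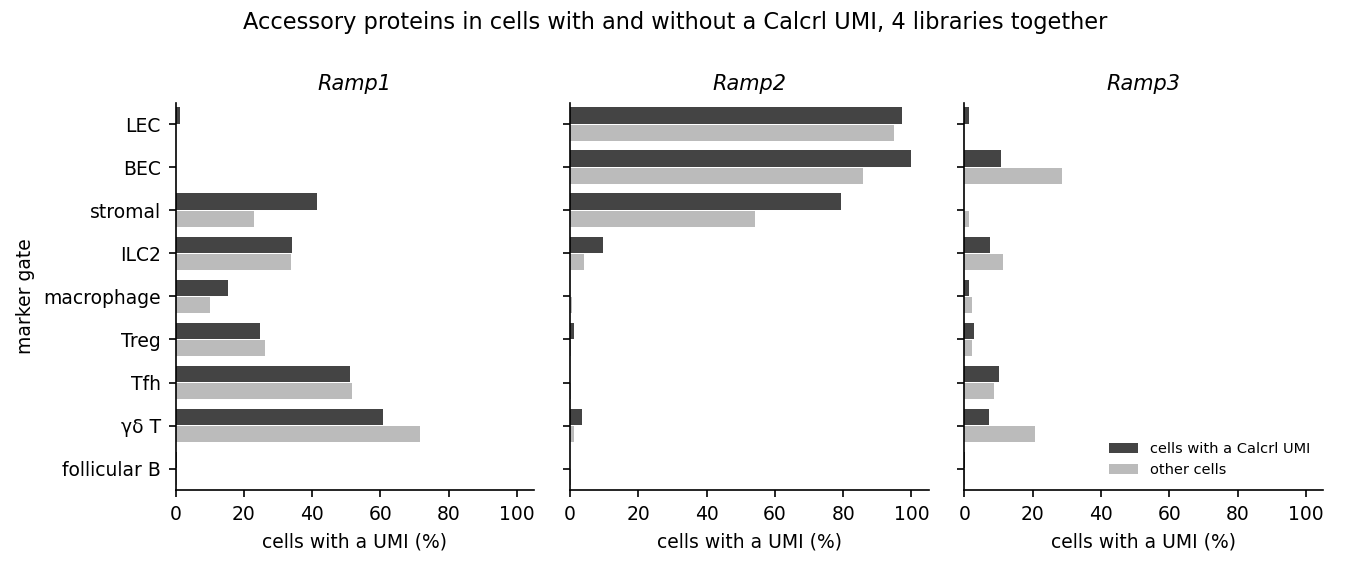
Percent of Calcrl+ cells and of the remaining cells of each gate shown that held a UMI of Ramp1, Ramp2 or Ramp3, both temperatures together. Ramp2 was in 97.1% of lymphatic endothelial cells with Calcrl, whereas Ramp1 was as common in ILC2-like cells with Calcrl (34.1%) as in those without (33.7%).

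In ILC2-like cells Ramp1 was the most common partner, at nearly the same share in cells with and without Calcrl. Of the 135 ILC2-like cells with a Calcrl UMI, 46 (34.1%) held Ramp1, compared with 33.7% of the 1154 cells without Calcrl. At 30 °C the shares were 43.8% and 42.8%, and at 4 °C they were 28.7% and 25.5%. In macrophages Ramp1 was in 15.4% of Calcrl+ cells and 10.1% of the rest, at median depths of 11061 and 8464 UMIs. The plot of partner genes shows both endothelial, stromal, ILC2-like, macrophage, regulatory T, follicular helper T, gamma-delta T and follicular B gates only. These shares are over cells of 4 libraries and were not tested.

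The comparison of 4 °C with 30 °C asks how acute cold relates to each gene within a cell type, using UMIs summed per library and edgeR's quasi-likelihood test over all genes of a gate. A summed level cannot tell less RNA in every cell from fewer cells that hold it, so shares of cells are given beside it. In all cells together none of the 7 members tested passed an adjusted p of 0.05, where 0.438% of all genes tested did. Of the 7, 5 had an unadjusted p under 0.05, as did 3115 of all 15076 genes tested. By DESeq2 3 members passed, and the count of all genes past the threshold ranged from 0 to 839 over the alternatives. Over 14 gates, 43 pairs of member and gate could be tested and 9 passed, 8 of them lower at 4 °C. In ILC2-like cells 4 of 5 members passed, where 7.51% of all genes did, in macrophages 2 of 3, where 16.9% did, in other T cells 2 of 5, where 1.76% did, and in other CD4 T cells 1 of 6, where 1.96% did. Nothing is read from these counts, since the members were chosen with the contrast known.

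**Figure D3:**
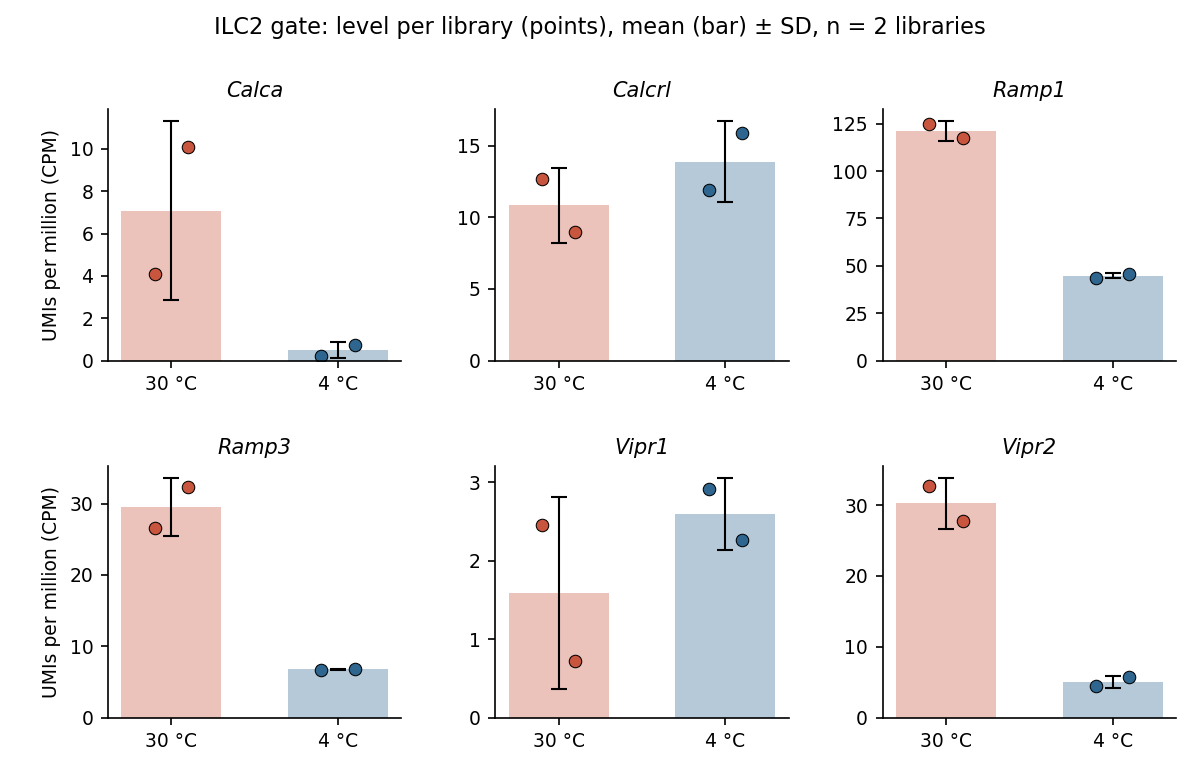
Members in ILC2-like cells, in CPM with 1 point per library and a bar at the mean of each temperature. Vipr2, Ramp1, Ramp3 and Calca were lower in both 4 °C libraries than in both 30 °C libraries, and Calcrl and Vipr1 overlapped.

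Vipr2, the VIP receptor gene with more UMIs in ILC2-like cells, had 80 and 77 UMIs in the 30 °C libraries and 20 and 15 in the 4 °C libraries. These were 32.7 and 27.7 CPM against 4.49 and 5.68 CPM. Both 4 °C libraries lay below both 30 °C libraries. The log2 fold change was -2.66 (SE 0.24, adjusted p = 9.41e-06, edgeR). The share of cells with a Vipr2 UMI was 19.7% ± 1.13 (SD, n = 2) at 30 °C and 4.64% ± 0.176 at 4 °C. With every cell thinned to 4300 UMIs, which left out 14 and 12 shallower cells, the expected shares were 12.1% and 2.41%. The other VIP receptor gene, Vipr1, had 6 and 2 UMIs in this gate at 30 °C and 13 and 6 at 4 °C. Its levels of 2.46 and 0.719 CPM against 2.92 and 2.27 CPM overlapped, and it was too low to be tested.

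Ramp1, the CGRP receptor partner, had 305 and 327 UMIs at 30 °C and 195 and 121 at 4 °C, or 125 and 118 CPM against 43.8 and 45.8 CPM. The temperatures did not overlap, and the log2 fold change was -1.51 (SE 0.12, adjusted p = 2.45e-06, edgeR). The expected share of thinned cells with Ramp1 was 31.3% ± 0.889 at 30 °C and 16.8% ± 0.679 at 4 °C, and unthinned it was 42.9% and 26.0%.

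Ramp3, the adrenomedullin receptor partner, had 65 and 90 UMIs at 30 °C and 30 and 18 at 4 °C, or 26.6 and 32.4 CPM against 6.74 and 6.81 CPM. The temperatures did not overlap, and the log2 fold change was -2.19 (SE 0.23, adjusted p = 2.73e-05, edgeR). The expected share of thinned cells with Ramp3 was 10.9% ± 2.00 at 30 °C and 3.47% ± 0.226 at 4 °C, and unthinned it was 16.8% and 5.95%.

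Calca, the CGRP precursor gene, had 10 and 28 UMIs at 30 °C and 1 and 2 at 4 °C. The ratio of 30 °C to 4 °C was 17.2 with a 95% counting interval of 5.46 to 87.1, and the log2 fold change was -4.03 (SE 0.71, adjusted p = 0.00279, edgeR). The 28 UMIs of the second 30 °C library were in 6 cells, 1 of which held 10. Without the first 4 °C library the fold change was -3.24 and no longer passed (adjusted p = 0.12), and without the second 30 °C library Calca was too low to be tested.

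Calcrl, the receptor that Ramp1 pairs with, had 31 and 25 UMIs at 30 °C and 53 and 42 at 4 °C, or 12.7 and 8.99 CPM against 11.9 and 15.9 CPM. The temperatures overlapped, and the log2 fold change of 0.27 (SE 0.27) did not pass (adjusted p = 0.634, edgeR). The smallest p that permuting 2 libraries against 2 can give is 0.3333, so the shares of cells have no test that could pass, and the exact p was 0.3333 for Vipr2, Ramp1, Ramp3 and Calca.

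Other genes of the ILC2-like gate moved with temperature beside these. Il13 was higher at 4 °C, with 169 and 118 CPM against 504 and 712 CPM (log2 fold change 2.01, SE 0.16), and Il13 is one of the gate's own markers. Il1rl1 (-1.57), Il17rb (-0.84), Klrg1 (-1.05), Rora (-0.45) and Il7r (-0.64) were lower, and Top2a (0.53), Nkg7 (1.15) and Trbc2 (0.38) were higher, all past the threshold, whereas Gata3 was level (0.01). The summed level of the T cell list was 1311 to 1423 CPM at 30 °C, against 1690 to 1722 CPM. The summed ILC2 list overlapped, at 2516 to 2644 CPM and 2289 to 2707 CPM.

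Narrower sets of these cells gave similar values, and all 4 sets were chosen after the data were seen. Without Il13, Il5 and Areg as markers, 1189 cells gave log2 fold changes of -2.55 for Vipr2, -1.52 for Ramp1 and -2.21 for Ramp3. Without cells holding Mki67 or Top2a, 750 cells gave -2.55, -1.27 and -2.32. Without cells holding Trac, Trdc or Tcrg-C1, 711 cells gave -2.79, -1.34 and -1.93, and the 613 cells with Gata3 and either Il17rb or Il1rl1 gave -2.14, -1.61 and -2.14. All 12 of these values passed the threshold, and Calca was not tested in these sets.

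**Figure D4:**
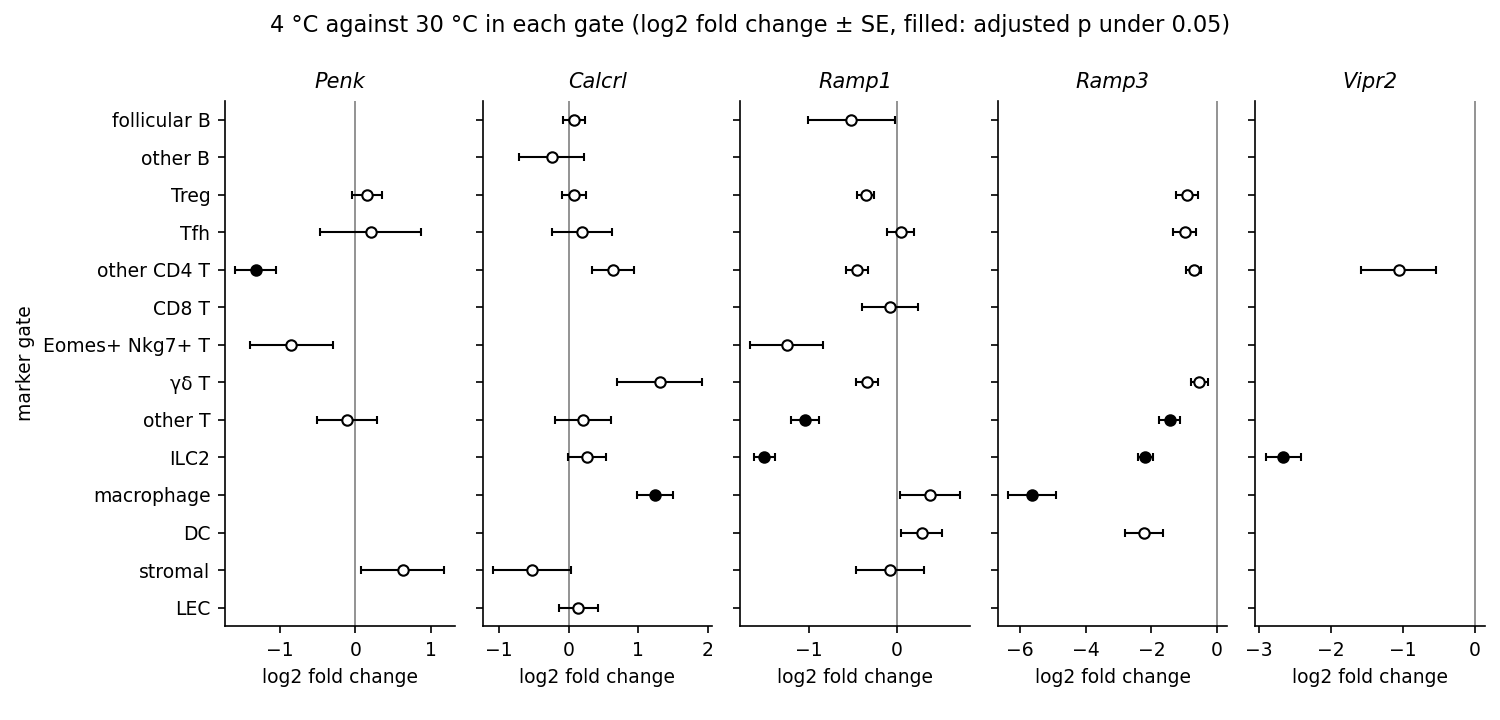
Log2 fold change of 4 °C against 30 °C for Penk, Calcrl, Ramp1, Ramp3 and Vipr2 in each gate where they could be tested. Bars are standard errors, and points are filled where the adjusted p was below 0.05. Filled points lie below 0 except for Calcrl in macrophages.

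The difference of the cold effect between gates was tested by an interaction term in 1 fit of both gates. For the 6 pairs of gates set by the highest levels, none passed and 1 had an unadjusted p under 0.05. For Vipr2 the effect in ILC2-like cells minus that in other CD4 T cells was -1.60 (SE 0.57, adjusted p = 0.343, edgeR). Of 9 further differences chosen after the values were seen, 5 passed. The Ramp1 effect in ILC2-like cells minus that in gamma-delta T cells was -1.18 (SE 0.18, adjusted p = 0.0119), where 1.39% of all genes passed. It was -1.15 (SE 0.14, adjusted p = 0.000226) against regulatory T cells, where 2.42% passed, and -1.53 (SE 0.18, adjusted p = 0.00162) against follicular helper T cells, where 0.327% passed. For Ramp3 the difference was -1.67 (SE 0.32, adjusted p = 0.0294) against gamma-delta T cells, -1.24 (adjusted p = 0.186) against regulatory T cells and -1.18 (adjusted p = 0.375) against follicular helper T cells. For Vipr2 the difference against regulatory T cells was 0.83 and did not pass (SE 0.91, adjusted p = 0.769, edgeR). Regulatory T cells held 10 and 4 Vipr2 UMIs at 30 °C and 0 and 1 at 4 °C. Other T cells held 7 and 3 against 0 and 0. The fall of Vipr2 is thus not shown to be particular to ILC2-like cells. Cells of both gates in a pair came from the same libraries. Ramp1 in ILC2-like cells was not compared with Eomes Nkg7 T cells or other T cells, where its log2 fold changes were -1.25 and -1.04. Nor was it compared with other CD4 T cells (-0.46) or CD8 T cells (-0.08).

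In macrophages Ramp3 had 25 and 15 UMIs in the 30 °C libraries and 1 and 0 in the 4 °C libraries, although the 4 °C libraries held 609 macrophages and the 30 °C libraries 344. These were 14.7 and 8.48 CPM against 0.257 and 0 CPM. The temperatures did not overlap. The ratio of 30 °C to 4 °C was 62.8 with a 95% counting interval of 10.6 to 2540, and the gene passed the fit (adjusted p = 0.000308, edgeR). The UMIs at 30 °C were spread over 12 cells of 164 in the first library and 7 cells of 180 in the second. The effect in macrophages minus that in ILC2-like cells was -3.48 (SE 0.99, adjusted p = 0.0458), where 5.45% of all genes passed, and it missed the threshold when either 4 °C library or the first 30 °C library was left out (adjusted p = 0.133 to 0.241).

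Calcrl in macrophages had 15 and 20 UMIs at 30 °C and 93 and 40 at 4 °C, or 8.82 and 11.3 CPM against 23.9 and 25.6 CPM. Both 4 °C libraries lay above both 30 °C libraries, and the log2 fold change was 1.24 (SE 0.26, adjusted p = 0.00693, edgeR). Without the first 30 °C library it was 1.06 and did not pass (adjusted p = 0.0814), nor did it pass by DESeq2 (adjusted p = 0.11). The expected share of thinned cells with Calcrl was 4.28% ± 0.624 at 30 °C and 10.1% ± 0.0558 at 4 °C, with 30 and 104 shallower cells left out, and unthinned it was 9.55% and 18.5%. The share in thinned follicular B cells was 2.64% and 3.08%.

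Ramp1 in macrophages had 19 and 29 UMIs against 87 and 18, or 11.2 and 16.4 CPM against 22.4 and 11.5 CPM. The temperatures overlapped (adjusted p = 0.511, edgeR). The first 4 °C library held 444 of the 953 macrophages. The T cell list in this gate was 41.8 and 36.7 CPM against 33.0 and 42.9 CPM, and the B cell list was 58.2 and 72.9 CPM against 61.0 and 91.7 CPM, so that both overlapped. The dendritic cell list was higher at 4 °C, at 79.3 and 121 CPM against 45.9 and 36.7 CPM. Single genes of other cell types moved with temperature in this gate. Il7r, a lymphocyte gene, was lower, with 38.2 and 16.4 CPM against 8.24 and 5.77 CPM (log2 fold change -1.90, adjusted p = 0.00613, edgeR). Ighd, a B cell gene, was higher, with 7.06 and 7.91 CPM against 22.7 and 17.9 CPM (1.43, adjusted p = 0.00606), as was Fscn1, a gene of mature dendritic cells (3.43, adjusted p = 0.00573). The stress-responsive genes Atf3 (1.51) and Dusp1 (-0.71) passed in opposite directions. The gate was taken as a whole and not divided into subsets of macrophages, whose shares at each temperature were not measured here. The part of these cells and genes in the results for Ramp3 and Calcrl was not tested.

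**Figure D5:**
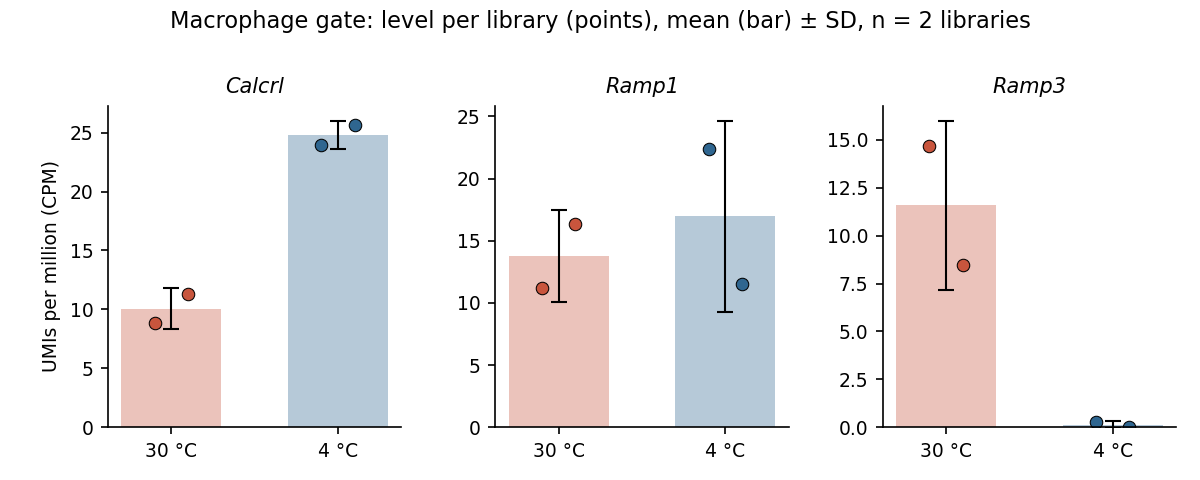
Members in macrophages, in CPM with 1 point per library and a bar at the mean of each temperature. Ramp3 lies at or near 0 in both 4 °C libraries, Calcrl is higher in both 4 °C libraries, and Ramp1 overlaps.

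Among the T cell gates, Ramp1 and Ramp3 were lower at 4 °C past the threshold only in other T cells. These are T cells that met none of the other T cell gates. Ramp1 had 223 and 390 UMIs at 30 °C and 123 and 130 at 4 °C, or 156 and 208 CPM against 82.8 and 106 CPM. The temperatures did not overlap, and the log2 fold change was -1.04 (SE 0.16, adjusted p = 0.000263, edgeR). Ramp3 had 42 and 98 UMIs at 30 °C and 32 and 12 at 4 °C, or 29.4 and 52.2 CPM against 21.5 and 9.79 CPM. The log2 fold change was -1.45 (SE 0.31, adjusted p = 0.0134, edgeR), and it was -0.94 without the second 30 °C library (adjusted p = 0.251) and -1.04 without the second 4 °C library (adjusted p = 0.146). Without cells holding Trdc or Tcrg-C1, Ramp1 was -0.80 and passed (adjusted p = 0.0262), and Ramp3 was -1.46 and did not (adjusted p = 0.0827). Jchain (-2.77) and Il13 (2.72) also moved with temperature in this gate, and their part was not tested.

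Penk in other CD4 T cells had 63 and 103 UMIs at 30 °C and 49 and 53 at 4 °C, or 22.3 and 43.0 CPM against 11.8 and 15.3 CPM. The temperatures did not overlap, and the log2 fold change was -1.31 (SE 0.27, adjusted p = 0.0115, edgeR). It was -0.78 and did not pass without the second 30 °C library (adjusted p = 0.125), where 1 cell held 42 of the 103 UMIs. The share of cells with Penk was nearly equal, at 3.54% ± 0.752 and 3.25% ± 0.306 (SD, n = 2), or 2.62% and 2.49% thinned. Gamma-delta genes moved in this gate too, with Trdc at 92.4 and 142 CPM against 9.60 and 8.11 CPM, and without cells holding Trdc or Tcrg-C1 Penk was -1.49 (adjusted p = 0.0683).

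Penk in regulatory T cells, where 6.25% of all genes passed, had 425 and 241 UMIs at 30 °C and 332 and 456 at 4 °C. These were 54.3 and 35.9 CPM against 41.4 and 64.8 CPM. The temperatures overlapped, and the log2 fold change was 0.15 (SE 0.20, adjusted p = 0.711, edgeR). Penk+ cells made up 5.84% ± 1.35 of the gate at 30 °C and 5.93% ± 0.0463 at 4 °C. Ramp1 in the same gate was 59.3 and 68.5 CPM against 48.9 and 55.6 CPM and just missed the threshold (log2 fold change -0.35, adjusted p = 0.0533).

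Penk in stromal cells, where 0.753% of all genes passed, had 22 and 10 UMIs at 30 °C and 68 and 24 at 4 °C. The temperatures overlapped (log2 fold change 0.62, SE 0.55, adjusted p = 0.779, edgeR). The gate held 20 to 29 cells in a library, and its median depth was 4272 UMIs at 30 °C and 12851 at 4 °C. Calcrl in lymphatic endothelial cells, where 1.41% of all genes passed, was 203 and 271 CPM against 317 and 231 CPM and overlapped (log2 fold change 0.14, SE 0.28, adjusted p = 0.921).

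Gamma-delta T cells, in which 5.75% of all genes passed, had the highest Ramp1. They held 620 and 811 Ramp1 UMIs at 30 °C and 227 and 103 at 4 °C, in 241, 266, 121 and 48 cells. As CPM the values were 206 and 240 against 180 and 192, which did not overlap, and the log2 fold change of -0.34 did not pass (adjusted p = 0.133, edgeR). Ramp3 in these cells was 29.9 and 44.1 CPM against 25.4 and 29.7 CPM (adjusted p = 0.258). In follicular helper T cells Ramp1 was 170 and 131 CPM against 140 and 184 CPM and overlapped.

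Vipr1 in dendritic cells had 1 and 2 UMIs at 30 °C and 16 and 12 at 4 °C. The ratio of 4 °C to 30 °C was 5.46 with a 95% counting interval of 1.69 to 28.1, both 4 °C libraries lay above both 30 °C libraries, and the log2 fold change of 2.32 (SE 0.71) did not pass (adjusted p = 0.154, edgeR). Ramp3 in dendritic cells had 14 and 43 UMIs against 16 and 6 and did not pass either (log2 fold change -2.23, adjusted p = 0.0928). In the second 30 °C library 6 cells held the 43 UMIs. Over 14 alternatives its value ranged from -2.93 to -1.04, and it passed in 5 of them. These were without the first 30 °C library (-2.93, adjusted p = 1.63e-05), with no filter on low counts (-2.18, adjusted p = 1.12e-06), with the mitochondrial limit at 15% (-2.26, adjusted p = 0.0350), with Scrublet doublets removed (-2.26, adjusted p = 0.0476) and with the stricter gate (-2.25, adjusted p = 0.0472).

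Summed over all cells, Vipr2 was 2.70 and 2.21 CPM against 0.692 and 0.642 CPM (log2 fold change -1.97, adjusted p = 0.0626, edgeR). Ramp3 was 7.64 and 12.0 CPM against 4.31 and 3.29 CPM (-1.46, adjusted p = 0.109), and Ramp1 was 46.1 and 55.3 CPM against 37.3 and 31.6 CPM (-0.65, adjusted p = 0.108). Vipr1 was 0.955 and 0.818 CPM against 1.66 and 1.60 CPM (0.78, adjusted p = 0.177). For each of these 4 the temperatures did not overlap, yet the fit over all genes did not pass them, whereas Penk and Calcrl overlapped. The 3 that passed by DESeq2 were Vipr2, Ramp3 and Ramp1.

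Other genes of peptide signalling were taken from lists of 27 further ligand genes, 37 further receptor or coreceptor genes and 18 genes of peptide processing and breakdown. Most had few reads: over all cells 7, 10 and 13 of them were tested, and none passed with edgeR. Of these 3, 2 and 2 had an unadjusted p under 0.05, as did 3115 of all 15076 genes tested, so nothing is read from these counts. In follicular B cells, where 15.7% of all genes passed, 1 of 3 ligand genes was higher, Adm, the adrenomedullin gene, with 23.8 and 22.0 CPM against 39.1 and 35.3 CPM (log2 fold change 0.58, adjusted p = 0.000131). One of 6 processing genes was lower there, Cpd, a carboxypeptidase gene (-0.37). In regulatory T cells 1 of 2 ligand genes was higher, Nmb, which encodes neuromedin B, with 34.4 and 30.4 CPM against 46.5 and 49.3 CPM (0.50, adjusted p = 0.0144).

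Edn1, the gene of endothelin 1, passed in opposite directions in 2 gates. In stromal cells it had 59 and 58 UMIs at 30 °C and 5 and 12 at 4 °C (log2 fold change -3.52, SE 0.52, adjusted p = 0.0117). In lymphatic endothelial cells it was 74.9 and 55.0 CPM against 232 and 176 CPM (1.51, SE 0.32, adjusted p = 0.0493). The difference between these gates was not tested.

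In macrophages 2 of 4 receptor genes passed, Ednrb, an endothelin receptor gene, higher by 0.43, and Ogfrl1, a gene related to the opioid growth factor receptor gene, lower by 0.94 on the log2 scale (107 and 114 CPM against 64.4 and 50.6 CPM, log2 fold change -0.94). Anpep, which encodes a membrane peptidase, was the 1 of 7 processing genes that passed there (0.53). In gamma-delta T cells 3 of 5 processing genes were higher, Cpe (1.14), Cpd (0.75) and Furin (0.59). In ILC2-like cells 1 of 6 was higher, Pcsk1, a prohormone convertase gene, with 2 and 5 UMIs at 30 °C and 25 and 14 at 4 °C (1.94, SE 0.53, adjusted p = 0.0374).

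The partners of the members were rare in the sorted cells. Vip, the ligand gene of both VIP receptors, had 1 UMI in all 4 libraries, and Adcyap1, which encodes a related ligand of the same receptors, had 0. Nmu and Nms, the ligand genes of Nmur1, had 0, and a count of 0 allows up to 3. Calcb, the other CGRP gene, had 11 and 28 UMIs at 30 °C and 14 and 21 at 4 °C. Of the opioid receptor genes, Oprd1 had 41 UMIs and Oprm1 41, whereas Oprk1 had 0. Adm was the only one of these ligand genes with many reads, 688 and 669 UMIs at 30 °C and 972 and 983 at 4 °C.

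The genes whose levels were most like those of 7 members across 16 gates were named by Pearson's r of log2(CPM + 1), as a description. For Calca they were Arg1 (0.895), Mpped2 (0.893) and Il13 (0.851), and for Nmur1 Arg1 (0.818), Il17rb (0.759) and Mpped2 (0.754). For Vipr2 they were Cpne7 (0.761), Il4 (0.761) and St6galnac2 (0.751). For Ramp1 they were Paqr7 (0.935), Tspo (0.926) and Ttc39c (0.921). For Calcrl they were Ripor1 (0.979), Socs3 (0.951) and Tmem106b (0.946), all highest in lymphatic endothelial cells. For Penk they were Abcb1a (0.919), Angptl2 (0.910) and Scfd1 (0.906), and for Vipr1 Gm26551 (0.853), St8sia1 (0.833) and Tcf7 (0.831). The gates share libraries and their mRNA content differs, so these values carry no test.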

How the data were processed

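Single-cell RNA from 4 libraries of ChAT-eGFP+ IWAT cells, 2 at 30 °C and 2 at 4 °C, was analysed from the deposited UMI counts per gene and cell. Per the labels, the authors made these counts with STAR and Cell Ranger 3.1.0 on mm10 and analysed them with Seurat 4.2.0. The methods and the file headers name another Cell Ranger release. Cells were kept as the study did, with 200 to 5000 genes and a mitochondrial share under 7.5%. Free RNA was not removed.

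The 8 members and all gene lists were chosen with earlier results of these data known, and the smallest number of markers per gate and the blood endothelial gate were set after values were seen. Cells were gated on detected markers (3 of 9 for ILC2-like, without Cd3e and Cd3d, and 5 of 8 for macrophages). Raw counts were summed per library over all cells and over each gate with at least 10 cells in every library, and tested across libraries with edgeR 4.0.16 (limma 3.58.1, R 4.3.3): TMM, filterByExpr, quasi-likelihood, Benjamini-Hochberg over all genes tested, threshold 0.05. Each gate and contrast was fitted over all genes. Interactions of cell type and temperature had the library as a covariate. Folds and log2 fold changes come from the fit. Fitted values of genes with 3 or fewer UMIs in a group depend on the prior count, so their ratio of counts is given with an exact interval. Shares of cells are unthinned, or the hypergeometric expectation at 4300 UMIs per cell, the 10th percentile of depth, with shallower cells left out. Their two-sided exact permutation test over libraries cannot go below 0.3333.

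Named genes were the 8 members, list genes past the threshold (at most 3 rises and 3 falls for a list and gate), the 3 genes most like each member across gates, among genes of at least 10 CPM in 1 gate, and markers used as checks. The genes most like Ramp3 are not reported here. Alternatives were DESeq2 1.42.0, no TMM, all genes with a count, a block for the replicate number, each library left out, other cell filters, Scrublet (scanpy 1.11.5) doublets removed, other gates and no immunoglobulin genes. The edgeR and DESeq2 fits of temperature and the edgeR interaction of gate and temperature were tested on simulated data. Python 3.11.15 and scipy 1.17.1 were used. Each library pools 4 mice, so its sum is 1 value and n is 2 per temperature.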

Additional observations from a re-analysis of the deposited data

Results flagged for a closer look

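The effect of cold on Ramp1 differed between ILC2-like cells and each of 3 T cell gates, by the test of the interaction itself. Gates with Ramp1 changes nearer to that of ILC2-like cells (-1.51), Eomes Nkg7 T cells (-1.25) and other T cells (-1.04), were not compared. Neither were other CD4 T cells (-0.46) and CD8 T cells (-0.08), so the fall is not shown to be particular to ILC2-like cells. The Ramp1 difference was -1.18 on the log2 scale against gamma-delta T cells, -1.15 against regulatory T cells and -1.53 against follicular helper T cells. For Ramp3 it was -1.67 against gamma-delta T cells. The effect on Ramp3 in macrophages also differed from that in ILC2-like cells, by -3.48. These pairs of gates were chosen after the values were seen, the compared gates came from the same libraries, and no explanation was weighed.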

How the results depend on the processing

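Vipr2, Ramp1 and Ramp3 in ILC2-like cells passed the threshold in all 18 alternatives, with log2 fold changes of -2.83 to -2.14, -1.61 to -1.27 and -2.46 to -1.93. Ramp3 in macrophages passed in all 14 (-7.29 to -5.24). The gates without some of their cells and the 9 further pairs of gates were chosen after seeing the data. For the values below that changed, the cause was not tested.

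By DESeq2, Ramp1 (-0.65), Ramp3 (-1.46) and Vipr2 (-1.97) passed in all cells, whereas Ramp3 in other T cells (-1.44) and Calcrl in macrophages (1.25) did not, and Calca in ILC2-like cells had no adjusted p. Without immunoglobulin genes Vipr2 in all cells passed (-1.97). Ramp3 in dendritic cells passed in 5 of 14 alternatives. Without the upper limit of genes in a cell, Penk in other CD4 T cells (-0.34) and Ramp1 (-1.43) and Ramp3 (-1.85) in other T cells no longer passed, nor did the interactions of ILC2-like with gamma-delta T cells for Ramp1 (-0.99) and Ramp3 (-1.59) or with follicular helper T cells for Ramp1 (-1.48). Calcrl in macrophages minus ILC2-like cells passed then (1.34). Without a filter on low counts Ramp3 in ILC2-like minus gamma-delta T cells was -1.60 and did not pass. Ramp3 in other T cells did not pass with Scrublet doublets removed (-1.46), cells of a second lineage kept (-1.38) or Trdc+ or Tcrg-C1+ cells left out (-1.46), and Penk in other CD4 T cells did not pass with the second lineage kept (-1.35) or those cells left out (-1.49). Ramp3 in macrophages minus ILC2-like cells did not pass with the stricter gate (-3.35) or the second lineage kept (-3.56).

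Effects that did not pass changed sign in some settings, and not all of them were small. With the stricter gate Penk in regulatory T cells was -0.0216 and Ramp3 in gamma-delta T cells 0.30. With the mitochondrial limit at 15% Calcrl was -0.0054 in regulatory T cells, -0.0331 in follicular helper T cells and -0.0135 in other T cells, and Ramp1 in follicular helper T cells -0.10. With no upper limit on genes Calcrl was -0.0243 in regulatory T cells, -0.31 in other T cells and -0.0025 in ILC2-like cells, and Ramp1 in follicular helper T cells was -0.11. In that setting Penk in Eomes Nkg7 T cells was 0.69, against -0.85 in the main fit. Vipr2 in ILC2-like cells minus regulatory T cells was -0.77 in that setting, against 0.83 in the main fit. Calcrl was -0.0697 in ILC2-like cells without Trac, Trdc or Tcrg-C1 and -0.0162 in follicular B cells with the second lineage kept, Penk in other T cells was 0.0457 without doublets, and the unthinned share of Penk+ regulatory T cells differed by 0.0907 percentage points.

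Leaving out each library in turn gave these ranges. Penk was -0.15 to 0.29 in all cells, -0.19 to 0.50 in regulatory T cells, -1.16 to 2.99 in follicular helper T cells, -1.74 to -0.78 in other CD4 T cells, -1.41 to 0.58 in Eomes Nkg7 T cells, -1.52 to 0.51 in other T cells and -0.17 to 1.73 in stromal cells. It passed in regulatory T cells without the first 4 °C library (0.43, adjusted p = 0.00113), in follicular helper T cells without the second 30 °C library (2.99) and in stromal cells without the first 30 °C library (1.73), 3 gates in which the call and the direction rested on 1 library. Calcrl was -0.0624 to 0.17 in all cells, -0.10 to 0.20 in follicular B cells, -0.62 to 0.0817 in other B cells, -0.0397 to 0.19 in regulatory T cells, -0.11 to 0.68 in follicular helper T cells, -1.13 to 0.38 in stromal cells, -0.0769 to 0.38 in lymphatic endothelial cells and 1.06 to 1.45 in macrophages. Ramp1 was -0.15 to 0.23 in follicular helper T cells, -0.46 to 0.24 in CD8 T cells, -0.29 to 0.69 in macrophages and -0.36 to 0.10 in stromal cells. Ramp1 in regulatory T cells passed without the second 4 °C library (-0.43, adjusted p = 0.000915), as did Ramp3 there (-1.28, adjusted p = 0.0290), and Ramp1 in other CD4 T cells passed without the first 30 °C (-0.62) or the first 4 °C library (-0.56). Ramp3 was -2.17 to -0.94 in other T cells, Vipr1 -0.14 to 0.56 in other T cells and Calca -4.84 to -3.24 in ILC2-like cells. Interactions ranged from -0.37 to 1.35 for Penk in stromal cells minus regulatory T cells, -0.23 to 1.34 for Calcrl in lymphatic endothelial minus stromal cells, -1.81 to -1.54 for Ramp3 in ILC2-like minus gamma-delta T cells (adjusted p = 0.0762 without the first 4 °C library), -1.71 to -0.79 for Ramp3 in ILC2-like minus regulatory T cells (passed without the first 30 °C library) and -5.37 to -2.93 for Ramp3 in macrophages minus ILC2-like cells. The difference in the share of Penk+ cells ranged from -1.08 to 0.915 percentage points in regulatory T cells and from -14.9 to 10.9 in stromal cells.

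The replicate numbers did not pair the libraries: same-numbered libraries correlated between -0.12 and 0.11 in their deviations over the gates, with 2 pairs only. With the replicate block the ILC2-like values were -2.67 for Vipr2, -1.51 for Ramp1, -2.16 for Ramp3 and -3.85 for Calca. Ramp1 and Ramp3 passed with the block in regulatory T cells (-0.35 and -0.92) and in other CD4 T cells (-0.45 and -0.70), and no other call of a member in a single gate changed. Counts of all genes past the threshold moved with the settings. They were 66 in all cells (0 to 839 over the alternatives), 699 in ILC2-like cells (203 to 987), 1569 in macrophages (633 to 2059), 149 in other T cells (26 to 263), 190 in other CD4 T cells (68 to 550), 1774 in follicular B cells (876 to 2618), 679 in regulatory T cells (161 to 1621), 519 in gamma-delta T cells (10 to 712), 28 in stromal cells (13 to 221) and 57 in lymphatic endothelial cells (6 to 175).

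With 2 libraries per temperature, each pooling 4 mice, p-values measure the spread between pools. Calca, Nmur1, Vipr1 and the endothelial and stromal gates rested on few UMIs or cells, so that differences there were often not detectable at this depth. The 4 °C mice also spent a day at room temperature, which cannot be told apart from the cold itself.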
